A study of Mus musculus with 4 samples.

Results

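Plasmacytoid dendritic cells (pDC) were examined among leukocytes of B16 melanoma, a transplantable mouse skin tumour line. They were chosen cell by cell from the RNA counts. A barcode counted as a cell with at least 1000 unique molecular identifiers (UMIs), at least 500 genes and at most 10% mitochondrial UMIs. A cell counted as a pDC with at least 3 UMIs of Siglech, at least 1 of Bst2 and none of Cd79a, at most 2 UMIs of the C1q genes (C1qa, C1qb and C1qc summed), and at most 1 UMI each of Cd209a, of Xcr1 with Clec9a, and of the Cd3 genes. This left 90 pDC of 7581 cells, 76 of 4370 in the wild-type (WT) library and 14 of 3211 in the library labelled knock-out (KO). The mice were male C57BL/6, wild type or with a knock-out of ATPIF1, a mitochondrial protein that inhibits the ATP synthase, and carried the tumour for 12 days. The labels give no other treatment, no age and no allele structure. Tumours of each genotype were pooled, CD45+ cells were sorted, and each pool gave 1 RNA library and 1 T cell receptor library, so the genotypes were compared with no replicate and no test.

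Plasmacytoid dendritic cells are round, secretory-looking dendritic cells that detect viral and self nucleic acids in endosomes through Toll-like receptors and can release large amounts of type I interferon. In the mouse they develop under the transcription factor Tcf4 (E2-2), an E protein that binds E-box sequences, and carry the lectin-like receptor Siglec-H and the membrane protein tetherin, encoded by Bst2. In tumours they are known both as a possible source of interferon and as cells whose interferon response is often muted.

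Siglech, Ccr9 and Klk1 are 3 genes that mark these cells, and the 250 bases of genomic sequence before each RefSeq transcript start are shown because E-boxes can be read in all of them. The windows are chr7:55767934-55768183 for Siglech, chr9:123766961-123767210 for Ccr9 and chr7:44225110-44225359 for Klk1, on the plus strand of GRCm38.p6, 5′ to 3′. The Siglech window reaches into the annotated span of the gene, because RefSeq's table uses a start inside it. Capitals mark every E-box, spelled CANNTG, which reads the same on both strands.
Siglech: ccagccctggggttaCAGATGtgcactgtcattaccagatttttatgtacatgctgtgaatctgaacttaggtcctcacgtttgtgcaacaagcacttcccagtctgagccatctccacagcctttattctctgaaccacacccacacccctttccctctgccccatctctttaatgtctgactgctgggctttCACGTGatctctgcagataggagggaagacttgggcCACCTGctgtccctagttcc
Ccr9: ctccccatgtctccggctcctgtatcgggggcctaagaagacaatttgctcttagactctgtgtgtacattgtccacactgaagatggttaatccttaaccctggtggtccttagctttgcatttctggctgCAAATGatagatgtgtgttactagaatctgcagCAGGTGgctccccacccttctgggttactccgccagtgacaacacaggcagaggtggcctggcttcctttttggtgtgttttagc
Klk1: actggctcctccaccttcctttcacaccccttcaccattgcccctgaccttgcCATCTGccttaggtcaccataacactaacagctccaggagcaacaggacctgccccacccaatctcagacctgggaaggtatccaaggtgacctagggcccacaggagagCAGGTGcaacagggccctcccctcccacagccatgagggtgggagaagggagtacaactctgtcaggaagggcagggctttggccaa
The Siglech window held 3 E-boxes, and the Ccr9 and Klk1 windows 2 each. The composite site of ETS and IRF factors, searched on both strands as GGAA, any 2 bases and GAAA, was found in none of the 3, so no motif overlapped another. An E-box is common, being present in 66.2% of 32851 mouse promoter windows of this length, and the composite site in 2.30%. Of the 20 genes that stood highest in WT pDC, listed in part below, 15 had a window in the table, and 11 of these held an E-box and 0 held the composite site. A match is a description of the letters only.

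The WT RNA library held 35152477 UMIs and the KO-labelled library 24385843. WT pDC had a median of 5229.5 UMIs (2179 to 14757) and 1872.5 genes per cell, and KO-labelled pDC 4521.5 UMIs (1529 to 6486) and 1711.5 genes. Levels are given as UMIs scaled to a total of 1000000 over the cells named (CPM), with exact 95% Poisson intervals, and log2 ratios carry exact conditional intervals; both cover counting error only, and neither the spread between mice nor that between libraries. Atpif1 (chr4:132530555-132535450), the gene named as knocked out, had 264 CPM from 107 UMIs in WT pDC and 267 CPM from 17 UMIs in KO-labelled pDC, and 580 against 681 CPM in all other cells. Its transcript was therefore not lower in the library labelled KO. The labels do not say which part of the gene was deleted, so this does not check the label, and every direction drawn from that library rests on the label alone.

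The number of Siglech UMIs set how near a cell lay to the gate. Among WT cells that met all its other clauses, 6 had 1 UMI of Siglech and 6 had 2, just outside it, and 1 and 2 of these cells carried at least 3 of the markers Ccr9, Klk1, Ly6d, Cox6a2 and Tcf4. Just inside, with 3 to 5 UMIs, were 7 cells, of which 6 carried at least 3 of the 5 markers. In the KO-labelled library 2 cells had 1 UMI and 2 had 2, with 1 cell of each carrying 3 of the markers, and 6 of the 14 pDC had 3 to 5 UMIs, of which 4 did. Of the 90 WT cells with at least 3 Siglech UMIs, 7 failed the Cd209a clause and 4 the Xcr1 and Clec9a clause. A cell could fail more than 1 clause. In the KO-labelled library, 5 of 21 failed the Xcr1 and Clec9a clause.

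Markers outside the rule were counted in each cell. WT pDC carried UMIs of a median of 11 of 14 other pDC markers, with a lowest cell at 7 and a highest at 14, while cDC1, cDC2, B cells and macrophages had a median of 1 and T cells of 0. Here cDC1 and cDC2 are the conventional dendritic cells gated on Xcr1 and Clec9a, and on Cd209a. KO-labelled pDC had a median of 12, from 2 to 14, and 13 of 14 carried at least 3, as did all 76 WT pDC. With each cell thinned to 1000 UMIs, the WT pDC median was 6 and the medians of the other classes were 0 or 1. Because the cells were chosen by Siglech and Bst2, genes expressed with these had to stand high, and these values are a description.

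Lists of markers of other cell types differed in their level. The summed level of 8 cDC1 markers was 91.2 CPM against 297 in other cells, with Xcr1, Itgae, Batf3 and Tlr3 at 0, that of 8 B cell markers 41.9 against 152, with 6 of 8 at 0, and that of 8 macrophage markers 104 against 5969, with C1qc, Adgre1 and Csf1r at 0. Melanoma markers summed to 22.2 against 1694 CPM. The list of 8 cDC2 markers was higher in pDC, at 1342 against 677 CPM, and 1851 in KO-labelled pDC; 21 WT pDC had at least 10 UMIs of it, and Ccl17 and Ifi205 were at 0. Most of it was Cd7, at 710 CPM, and Clec10a, at 249, while Cd209a, which the rule limited, had 32.1. The list of 8 plasma cell markers was also higher, at 1006 against 160 CPM, from Xbp1 and Mzb1, with 4 members at 0. The list of endothelial or stromal markers had 148 against 34.8 CPM. The part of these cell types in the results was not tested. A list of 8 neutrophil markers stood at 2767 CPM in WT pDC, 3118 in other cells, 5918 in empty droplets and 0 in KO-labelled pDC. It came from 5 WT cells with at least 10 UMIs of S100a8 and S100a9, and was 115 CPM in the other 71. A productive T cell receptor contig marked as from a cell was found in 32.2% of gated WT T cells. No WT pDC (0 of 76, which allows up to 3.95% of cells at 3 counts of the total) and no KO-labelled pDC (0 of 14, up to 21.4%) had such a contig. Contigs of any kind lay on the barcodes of 31 of 76 WT pDC and 3 of 14 KO-labelled pDC. They also lay on those of 333 of 839 gated WT macrophages and 420 of 537 gated WT T cells. In all 29 cell barcodes occurred in both libraries, and none of them was a pDC.

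The genes that stood highest in WT pDC over the other 4294 WT cells formed a mixed group of surface, muscle-type and enzyme genes. Cox6a2 (chr7:128205435-128206366), a cytochrome c oxidase subunit otherwise typical of muscle, had 2017 CPM (1881 to 2160) against 5.20 in the other cells, a log2 ratio of 8.60 (8.34 to 8.87), and was seen in 72 of 76 cells. Its level per cell ran from 0 through a median of 2008 to 5173 CPM. Ccr9 (chr9:123767211-123783457), the receptor for the gut and thymus chemokine CCL25, had 1189 CPM against 4.94 and was seen in 74 cells. Klk1 (chr7:44225360-44229622), a tissue kallikrein, had 1083 CPM against 5.13 but was seen in only 55 cells, with a median of 679 and a highest of 4296 CPM. Ly6d (chr15:74762056-74763567), a small surface protein of early lymphoid cells, had 2764 CPM against 45.0 and ranged from 0 through 2097 to 15958 CPM per cell. B cells had a Ly6d level of 1136 CPM, and the other gated classes at most 2.57.

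Others of the 20 leading genes were also rare outside pDC. Atp2a1, the calcium pump of fast muscle, had 178 CPM and a log2 ratio of 7.86, Sh3bgr 160 CPM and 8.52, and Paqr5, a membrane progestin receptor, 150 CPM and 8.01. Cd300c, a receptor of the CD300 family, had 328 CPM and 7.01, Pacsin1, a membrane-bending adaptor, 330 CPM and 6.71, and Smim5, a small membrane protein, 422 CPM and 6.42. Klk1b27 had 128 CPM and 7.39, but kallikrein genes are near-identical in sequence, and how reads were split among them is uncertain. Siglech itself (chr7:55768154-55779448) had 2059 CPM and Bst2 4308 CPM, values that the rule fixed. A list of 19 membrane, metabolic and other genes reported in pDC had 17 members at least 2-fold higher and 0 lower, with a median log2 ratio of 3.58, beside 15.8% and 14.1% of all 12445 measured genes and a median of 0.11. By the stricter count, in which the interval also excluded equal levels, 11.4% of genes were higher and 8.99% lower. A gene is called measured here with at least 20 UMIs over the cells compared. As the rule used this contrast, the list counts against the other cells describe the pDC and nothing is read from them. The shares of 15.8% higher and 14.1% lower stand beside every list count against other WT cells below.

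**Figure D1:**
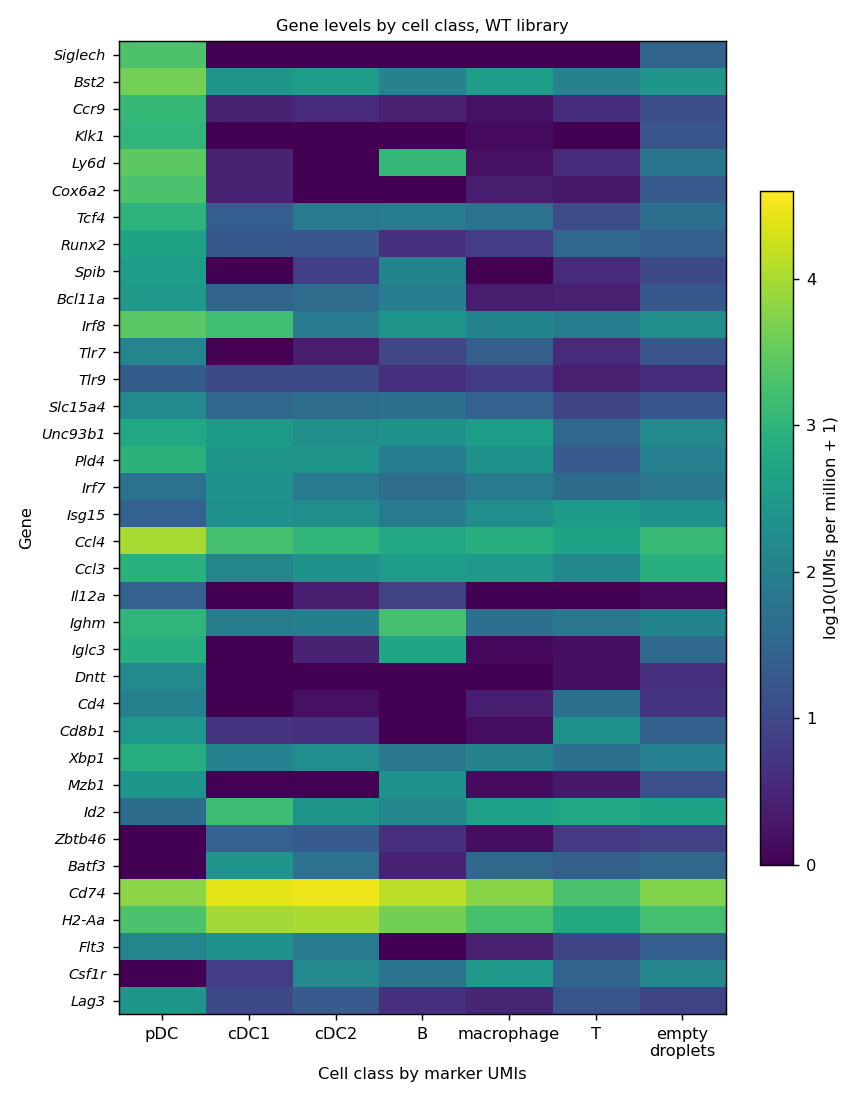
Levels of selected genes (rows) in 6 gated classes of WT cells and in empty droplets (columns), as log10 of CPM plus 1, shown by colour. Siglech, Ccr9, Klk1 and Cox6a2 are bright in the pDC column and at most 29.4 CPM in every other column, while Ly6d is also high in B cells at 1136 CPM and Ccl4 is above 0 in every class.

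The transcription factors of the pDC programme were the next group. Of 15 measured, 9 were at least 2-fold higher and 0 lower, with a median log2 ratio of 1.90. Tcf4 had 945 CPM against 52.9 in the other cells and was seen in 73 of 76 pDC, with a median of 851 CPM per cell. Runx2 (chr17:44495987-44814797), which controls the exit of pDC from the bone marrow, had 444 against 14.3, and Spib (chr7:44525995-44532087), an ETS factor, 367 against 7.63. Bcl11a, a zinc finger factor upstream of Tcf4, had 293 against 13.4. Irf8 (chr8:120736358-120756694) had 2604 against 189 CPM, was seen in every WT pDC, and ranged from 228 through 2515 to 6000 CPM per cell.

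Irf8 was also high in one of the conventional dendritic cell classes. It had 1549 CPM in cDC1, a log2 ratio of 0.75 (0.62 to 0.88), but 74.2 in cDC2, a log2 ratio of 5.13. Tcf4 had 22.9 CPM in cDC1 and 76 in cDC2. Zeb2, a repressor of Id2, had 185 CPM in pDC, 1.91 in cDC1 and 134 in cDC2. Against cDC1, 9 of 12 measured pDC factors were at least 2-fold higher and 1 lower, beside 23.2% and 13.7% of 4935 genes. Against cDC2, 7 of 13 were higher and 0 lower, beside 17.8% and 16.3% of 7077 genes.

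Factors of conventional dendritic cells were measured in the same way. Id2, an inhibitor of E proteins, had 41.9 CPM in WT pDC, 1499 in cDC1 and 237 in cDC2. Batf3, which cDC1 need for their development, and Zbtb46 had 0 UMIs in pDC, where cDC1 had 245 and 26.8 CPM. Irf4 went the other way, with 128 CPM in pDC, 38.3 in cDC2 and 0 in cDC1. Of 10 such factors, 4 were at least 2-fold lower and 2, Irf4 and Bcl6 (9 UMIs), higher than in other cells.

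The machinery that senses nucleic acids in endosomes was present. Tlr7 (chrX:167303380-167330574), the receptor for single-stranded RNA, had 121 CPM (49 UMIs in 31 cells) against 13.8 in other cells, 1.24 in cDC2 and 0 in cDC1, where the ratio was at least 21.1-fold against a floor of 3 UMIs. Tlr9, which binds unmethylated DNA, had 22.2 CPM from 9 UMIs against 4.80, and Tlr3 and Tlr8 had 0 UMIs. Unc93b1, which escorts these receptors to endosomes, had 552 against 225 CPM, and Slc15a4, a lysosomal transporter that the receptors need, 150 against 24.6. Pld4, an exonuclease that trims endosomal nucleic acids, had 912 against 158 CPM, whereas its relative Pld3 had 37.0 against 89.1. Of 22 members of the list, 7 were at least 2-fold higher and 3 lower than in other cells, beside 15.8% and 14.1% of all genes. The median log2 ratio was 0.68, and -0.19 when every cell was thinned to 1000 UMIs.

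Transcripts of type I interferon itself were not seen. Of 20 type I and III interferon genes, 19 had 0 UMIs in WT pDC and Ifnl2 had 1 UMI, and in KO-labelled pDC all 20 had 0. At 405498 pDC UMIs in the WT library, a count of 0 allows up to 7.40 CPM at a floor of 3 UMIs, and at 63748 KO-labelled pDC UMIs up to 47.1 CPM. Irf7, the master factor of the interferon response, had 54.3 CPM in WT pDC, 74.9 in other cells and 210 in cDC1. Interferon-induced genes were low as well. Of 34 measured type I targets, 19 were at least 2-fold lower and 3 higher than in other cells, with a median log2 ratio of -1.18. Isg15 had 27.1 against 221 CPM, Rsad2 1 UMI and a log2 ratio of -3.56 (-8.87 to -1.08), and Ifit1, Oas1a and Rtp4 had 0 UMIs. The 3 higher members were Ly6e (2261 against 613 CPM), Ly6a (338 against 122) and Stat2 (56.7 against 24.4). With thinned cells the list median was -0.42. Both receptor chains for type I interferon were higher in pDC, Ifnar1 at 178 against 59.7 CPM and Ifnar2 at 471 against 132, while Ifngr1, the ligand-binding chain for interferon gamma, was lower at 41.9 against 132. Of 16 targets of interferon gamma, 9 were at least 2-fold lower and 1, Gbp4, higher, beside 14.1% and 15.8% of all genes.

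Antigen presentation genes separated pDC from both conventional dendritic cell classes. Cd74, the invariant chain, had 6345 CPM in WT pDC, 25857 in cDC1 and 30028 in cDC2, log2 ratios of -2.03 (-2.09 to -1.97) and -2.24 (-2.30 to -2.19). H2-Aa, an MHC class II chain, had 2012, 9166 and 10413 CPM. Of 11 measured class II genes, 10 were at least 2-fold lower than in cDC1 and 10 lower than in cDC2, beside 13.7% and 16.3% of all genes. The list medians were -2.58 and -2.85, beside medians of 0.21 and 0.13 over all genes. Ciita, the class II transactivator, had 9.86 CPM from 4 UMIs, against 120 and 135. H2-Oa, a chain of the peptide-loading modulator, was the member closest to the other classes, with 88.8 CPM against 122 in cDC1 and 108 in cDC2. Among costimulatory and inhibitory ligands, 7 of 16 were at least 2-fold lower than in other cells and 2 higher. Cd86 had 2 UMIs and Cd40 had 0, while Cd200, a ligand of an inhibitory receptor, had 74.0 CPM against 10.2.

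**Figure D2:**
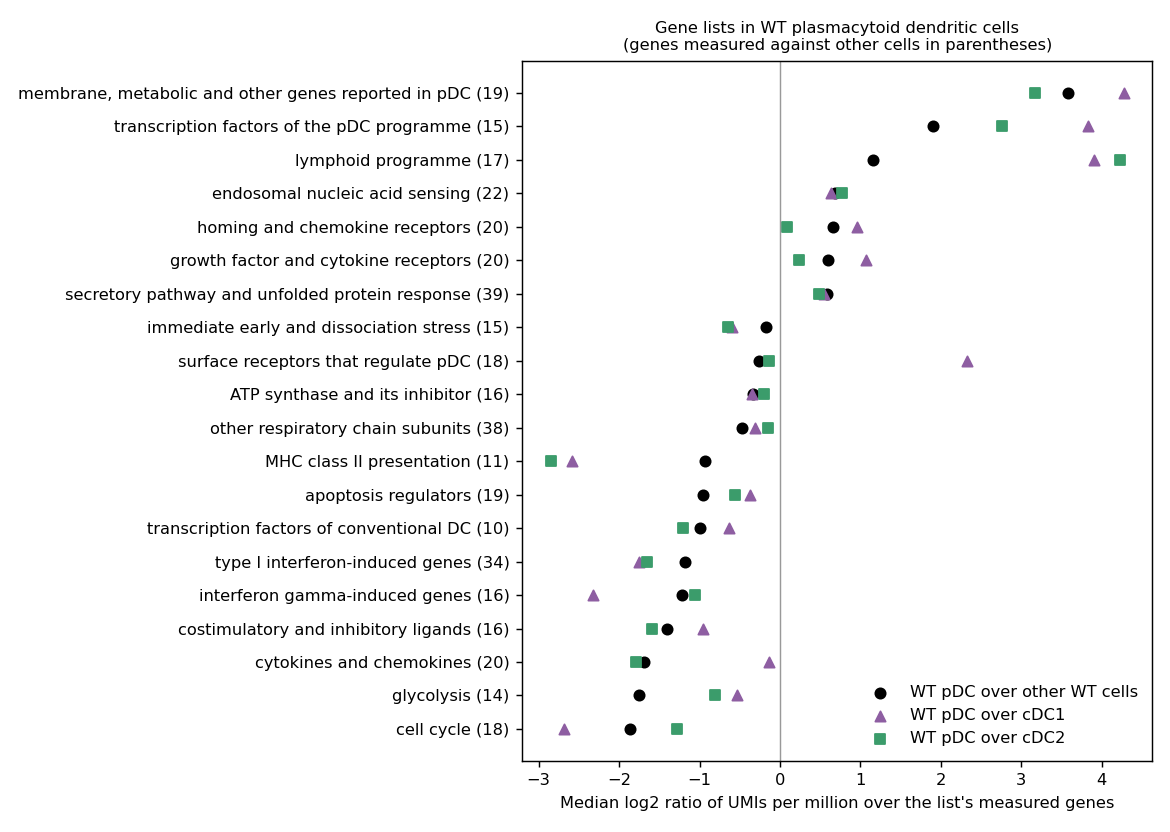
Median log2 ratio of WT pDC over other WT cells, cDC1 and cDC2 for each gene list with measured members. The class II list lies at -0.93, -2.58 and -2.85, the pDC transcription factors at 1.90, 3.83 and 2.76, and the cell cycle list at -1.86, -2.68 and -1.28.

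Single genes with the widest contrast to conventional dendritic cells were ranked by the interval bound nearest 0. Against cDC1, Ly6d, Cox6a2, Klk1, Ly6c2, Pltp and Ccr9 led. Ly6c2, a Ly6 family surface protein, had 969 CPM and Pltp, a phospholipid transfer protein, 809 CPM, where cDC1 had 0 UMIs of each, ratios of at least 169-fold and 141-fold. Lowest against cDC1 were Ifi205, Naaa, Cxcl10, Cxcl9, Olfm1 and Plbd1. Naaa, a lysosomal amidase, had 7.40 CPM from 3 UMIs against 1449, a log2 ratio of -7.61 (-9.89 to -6.06). Cxcl9 and Cxcl10, chemokines that draw T cells, had 0 UMIs in pDC against 455 and 484 CPM in cDC1, at least 61.5-fold and 65.4-fold lower. Against cDC2, Ly6d, Cox6a2, Klk1, Ccr9, Pacsin1 and Atp1b1 led, and Ifitm3, Olfm1, S100a4, Ifitm1, Cxcl10 and Ms4a6d were lowest. Ifitm3, an interferon-inducible antiviral membrane protein, had 54.3 CPM against 3459 in cDC2, a log2 ratio of -5.99 (-6.67 to -5.39). Against all other cells the lowest were Pf4, Arg1, Dct, Lyz2, Trem2, Ms4a7, Mlana, Cxcl1, Ccl7 and Spp1, which are mostly known from myeloid and melanoma cells.

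One chemokine stood apart from the rest. Ccl4 (chr11:83648624-83664683), an inflammatory chemokine, had 9951 CPM (9646 to 10263) in WT pDC and was seen in 70 of 76 cells. It had 1736 CPM in cDC1, 1067 in cDC2, 763 in macrophages, 591 in B cells, 474 in T cells and 1273 in empty droplets, and none of these intervals reached that of pDC. With cells thinned to 1000 UMIs, 73.7% of WT pDC (62.3 to 83.1, Clopper-Pearson) kept a Ccl4 UMI, against 44.2% of cDC1, 31.4% of cDC2, 25% of macrophages, 13.8% of T cells and 10.1% of B cells; unthinned, the pDC share was 92.1%. The level was uneven, from 0 through a median of 4086 to 61978 CPM per cell, and 5 cells held 35.7% of the UMIs. KO-labelled pDC had 11985 CPM (11150 to 12866) in 13 of 14 cells. The annotated span of Ccl4 overlaps that of its neighbour Ccl3, another inflammatory chemokine, so reads could be split between them. Ccl3 had 861 CPM in 32 pDC and 733 in other cells.

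The other cytokine genes were mostly low in WT pDC. Of 20 on the list, 14 were at least 2-fold lower than in other cells and 2, Ccl4 and Il12a, higher. Il12a, a subunit of interleukin 12, had 11 UMIs in 9 cells, 27.1 against 0.618 CPM. Il12b had 1 UMI. Tnf had 49.3 against 259 CPM and Ccl5 12.3 against 480. Il1b (345 CPM) and Cxcl2 (1613 CPM) came almost only from the 5 cells with neutrophil transcripts, which held 129 of 140 and 604 of 654 UMIs.

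Homing and surface receptors differed in both directions. Besides Ccr9, Selplg, the selectin ligand PSGL-1, had 735 CPM against 195 in other cells, and Itgal, an integrin chain, 158 against 28.6. Ccr7, which guides cells to lymph nodes, had 12.3 against 158 CPM, and Ccr2 46.9 against 239. Cx3cr1, Itgam and S1pr1 had 0 UMIs. Of 20 homing genes, 6 were at least 2-fold higher and 4 lower, beside the 15.8% and 14.1% of all genes. Among receptors that regulate pDC, Lag3, an inhibitory receptor for MHC class II, had 276 against 9.71 CPM, Lair1, a collagen receptor, 639 against 41.3, Klra17 148 against 6.36 and Ptprs, a receptor phosphatase, 256 against 31.7. Tyrobp, the adaptor through which Siglec-H signals, had 5319 against 2174. The Fc receptors Fcgr2b and Fcgr3 were lower, at 44.4 against 288 and 39.5 against 301 CPM. On this list 7 of 18 were at least 2-fold higher and 8 lower than in other cells. Against cDC1, 10 of 14 were higher and 1 lower, beside 23.2% and 13.7% of all genes. Against cDC2, 6 of 18 were higher and 9 lower, beside 17.8% and 16.3%.

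Flt3, the receptor for the main dendritic cell growth factor, had 126 CPM in pDC, 220 in cDC1 and 82.2 in cDC2. Csf1r, the macrophage receptor, had 0 UMIs against 184 CPM in other cells. Il7r had 202 against 85.5 and Tgfbr1 195 against 36.0 CPM. Of 20 such receptors, 8 were at least 2-fold higher and 4 lower than in other cells, beside 15.8% and 14.1% of all genes.

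A set of genes better known from lymphocytes was expressed. Dntt (chr19:41029275-41059525), the enzyme that adds bases during receptor gene rearrangement, had 158 CPM against 0.400 and was seen in 38 of 76 cells, while Rag1 had 1 UMI and Rag2 had 0. Ighm, the immunoglobulin mu heavy chain, had 1033 CPM and was seen in all 76 cells, from 235 through 1022 to 2754 CPM. B cells had 1769 CPM. With thinned cells, 64.5% of pDC kept an Ighm UMI, against 77.8% of B cells, 6.32% of macrophages and 6.33% of T cells. Iglc3, a light chain constant segment, had 767 CPM in pDC and 508 in B cells, but Igkc, another such segment, had 182 and 1650. The B cell factors Ebf1, Pax5 and Pou2af1 had 0 UMIs in pDC, where B cells had 947, 217 and 165 CPM, and the pDC rule itself had removed cells with Cd79a. Cd4 had 104 CPM against 5.78, and Cd8b1 286 against 22.9, while Cd8a had 83.8 against 12.1. Blnk, an adaptor of B cell receptor signalling, had 348 against 30.6. Of 17 measured lymphoid genes, 8 were at least 2-fold higher and 4 lower than in other cells, beside 15.8% and 14.1% of all genes.

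Some genes of the secretory pathway were higher in WT pDC than in other cells. Xbp1, which drives expansion of the endoplasmic reticulum, had 737 CPM against 117 in other cells and was seen in 70 cells, Herpud1 543 against 95.5, and Mzb1, a chaperone of antibody-secreting cells, 259 against 8.18. Of 39 measured members 9 were at least 2-fold higher and 1, Rpn1, lower, with a median of 0.59, beside 15.8% and 14.1% of all genes and their median of 0.11. The plasma cell genes Jchain, Derl3 and Tnfrsf17 had 0 UMIs. Ctsl, a cathepsin that processes Toll-like receptors, had 1386 against 687 CPM, and Plac8 2254 against 372.

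Proliferation and glycolysis genes were low. Of 18 cell cycle genes 15 were at least 2-fold lower than in other cells and 0 higher, beside 14.1% and 15.8% of all genes. Mki67 and Top2a had 1 UMI each, and Stmn1 7.40 against 167 CPM. Of 14 glycolysis genes 11 were lower, among them Gapdh (1282 against 4071 CPM) and Eno1 (219 against 1256). Against cDC1 3 of 12 glycolysis genes were lower and 1 higher, beside 13.7% and 23.2% of all genes, with a list median of -0.53. Against cDC2 4 of 14 were lower and 0 higher, beside 16.3% and 17.8% of all genes, with a list median of -0.81. Of 16 ATP synthase genes, the complex that ATPIF1 inhibits, 1 was at least 2-fold lower, Atpif1 itself at 264 against 580 CPM, and the list median was -0.34. Of 38 other respiratory chain genes 3 were lower and 1, Cox6a2, higher. Cox6a1, the widely expressed counterpart of Cox6a2, had 397 against 559 CPM.

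Several smaller groups completed the profile. Of 19 apoptosis regulators 8 were at least 2-fold lower than in other cells and 1 higher, beside 14.1% and 15.8% of all genes. The higher gene was Bbc3, a pro-death BCL2 family gene, at 49.3 against 18.1 CPM. Bcl2, which protects cells from death, had 9.86 CPM from 4 UMIs against 25.6, and Mcl1, another survival factor, 481 against 686. Of 15 immediate early and stress genes 6 were lower, among them Dusp1 at 239 against 1006 CPM, and 1, Jund, higher at 3566 against 942. Cdh5 and Pecam1, junction proteins best known from blood vessels, had 66.6 and 71.5 CPM against 0.654 and 9.74, while the stromal genes Col1a1, Col3a1, Dcn and Pdgfrb had 0 UMIs. Of 8 markers of transitional dendritic cells, a population related to pDC, 7 were lower than in other cells, with Axl, Cx3cr1 and Lyz1 at 0 UMIs. A list of 8 monocyte markers summed to 3428 CPM in WT pDC, 4879 in KO-labelled pDC and 7492 in other WT cells, and 2 of its members, Ly6c2 and Plac8, were at least 2-fold higher in WT pDC than in other cells and 6 lower.

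The spread between WT pDC was measured gene by gene. Over the 1046 genes with at least 50 UMIs, the variance between cells was a median of 1.22 times that expected from counting alone, and 95 genes exceeded 3 times. The 12 most variable were Cxcl2, S100a9, S100a8, Ccl4, Il1b, Ccl2, Cebpb, Fth1, Ccl3, Ftl1, Areg and Ly6d. The 5 cells with neutrophil transcripts, at 355, 349, 263, 29 and 20 UMIs of S100a8 and S100a9, set many of these. Without them the ratio fell from 135 to 1.61 for S100a9, from 141 to 9.78 for Cxcl2 and from 52.5 to 0.868 for Il1b. Ccl4 had 110 with these cells and 118 without, Ccl3 23.6 both ways and Ly6d 18.3 and 16.7. The 5 cells had 4 to 24 Siglech UMIs and a median of 6705 UMIs in all, against 5100 in the other 71; whether they are doublets was not tested.

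The genes closest to each of 6 variable genes across the 76 WT pDC are described by Pearson's r of log-scaled cell levels, which share the library and the depth of each cell. H2-Aa went with H2-Eb1 (0.83), H2-Ab1 (0.78) and Cd74 (0.76). Fos, an immediate early gene, went with Zfp36 (0.61) and Jun (0.56). Ccl4 went with Ccl3 (0.55) and Klk1 (0.46), and with Ccl3 at 0.53 in the 71 cells without neutrophil transcripts. Klk1 went with Pltp (0.47) and Ly6d with Cyba (0.43). Cxcl2 went with Hcar2 (0.89), S100a9 (0.78) and Il1b (0.77), but with Hcar2 at 0.44 in the 71 cells.

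**Figure D3:**
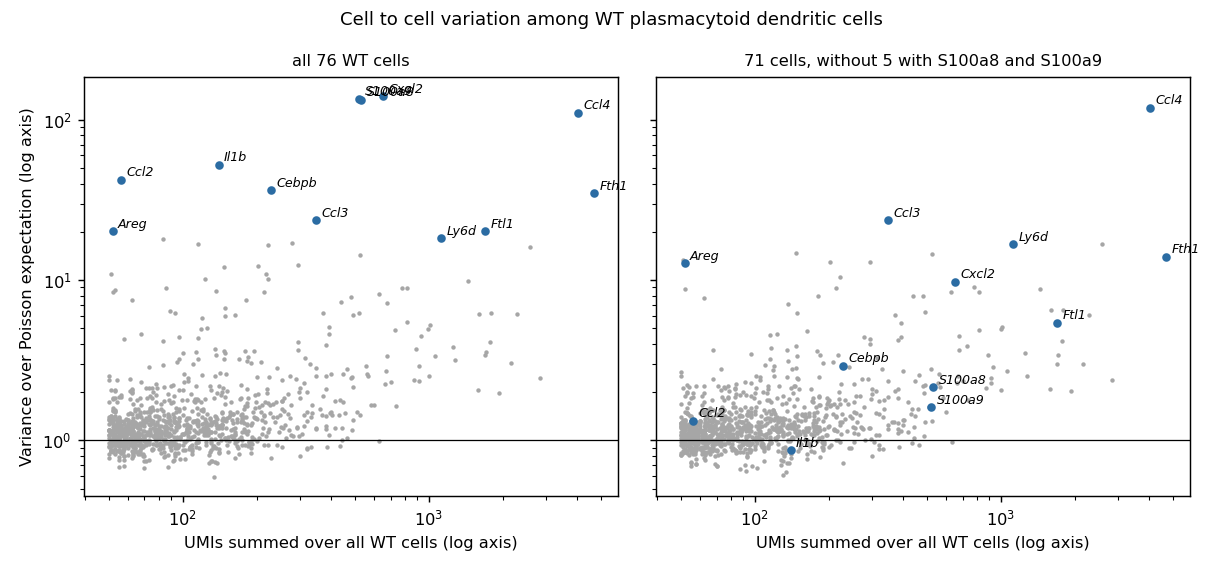
Variance of cell levels over the Poisson expectation (vertical, log axis) against summed UMIs (horizontal, log axis) for genes with at least 50 UMIs in WT pDC, over all 76 cells and over the 71 cells without neutrophil transcripts. The median of all genes is 1.22, and S100a8, S100a9 and Il1b drop towards 1 when the 5 cells are left out while Ccl4 has 118 without them.

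The share of pDC was lower in the KO-labelled library. It was 1.74% of cells (1.37 to 2.17, Clopper-Pearson) in WT and 0.436% (0.239 to 0.730) in the KO-labelled library, a ratio of 3.99-fold (2.24 to 7.64). Among gated dendritic cells pDC were 24.8% of 307 in WT and 5.04% of 278 in the KO-labelled library, a ratio of 4.92-fold (2.76 to 9.42). The counts of cDC1 were 43 and 88 and those of cDC2 188 and 176. B cells, 248 and 31, were also fewer, and without them the pDC shares were 1.84% and 0.440%. Each share comes from 1 pool, and a difference between genotypes, between tumours or in the handling of the pools cannot be told apart.

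Of the 14 KO-labelled pDC, 2 differed from the rest. They had 4097 and 5689 UMIs and 3 of Siglech each, and no UMI of Ccr9, Klk1, Ly6d or Cox6a2, as in 0 of 76 WT pDC. The pair held 14 UMIs of Tcf4, 4 of Irf8 and 9 of Ighm. They also held 107 of the 138 UMIs of Crip1 in KO-labelled pDC, and the Crip1 log2 ratio over WT was 2.56 with them and 0.64 without. Crip1, a LIM-domain protein, is on the list of 8 transitional dendritic cell markers. That list summed to 2243 CPM in KO-labelled pDC and 424 in WT pDC, against 4152 and 2625 in the other cells of each library. Most of the sum in pDC of both libraries was Crip1 alone, which had 367 CPM in WT pDC. In KO-labelled pDC 4 of the 8 members had 0 UMIs, and only 1 member, Crip1, was measured between the libraries. Whether the 2 cells are transitional dendritic cells was not tested. Another KO-labelled cell, with 6486 UMIs, held 254 of 1123 UMIs of 15 immediate early and dissociation stress genes, or 22.6%. Leaving out the 2 cells moved 7 of 20 list medians of KO-labelled over WT pDC, and values without them are given below for 2 of the marker genes, chosen after their values were seen.

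Identity genes were compared first. Over 14 pDC markers the median log2 ratio of KO-labelled over WT was -0.05, with 2 at least 1.5-fold higher and 1 lower. The stricter count also gave 2 and 1. This is beside 14.6% and 26.7% of 3183 measured genes, 3.96% and 3.11% when the interval also had to exclude equal levels, and a median over all genes of -0.11. Cd300c was higher at 659 against 328 CPM, a log2 ratio of 1.01 (0.47 to 1.52). Klk1b27 was higher at 267 against 128 CPM, a log2 ratio of 1.06 (0.17 to 1.87), and Pld4 lower at 596 against 912 CPM. Tcf4 had 1035 against 945 CPM, Irf8 2667 against 2604, Cox6a2 2196 against 2017 and Ighm 1082 against 1033, with cells of both libraries overlapping throughout for these 4. Without the 2 cells that lack 4 of the markers, the log2 ratio of Cox6a2 went from 0.12 to 0.36 (0.09 to 0.62). Ly6d had 1929 against 2764 CPM, a log2 ratio of -0.52 (-0.80 to -0.25), less than 1.5-fold. Its ratio was -0.28 (-0.56 to -0.0087) without the 2 cells and -1.55 in all other cells. Within gated B cells, the other class high in Ly6d, it had 2640 CPM in the KO-labelled library and 1136 in WT. These B cells numbered 31 and 248, and their part in the ratio of all other cells was not tested. Cd8b1 had 612 against 286 CPM, and Cd8a had 0 UMIs against 83.8 CPM. Of 16 ATP synthase genes 1 was higher and 1 lower, with a median of 0.01, and Atpif1 had a log2 ratio of 0.02 (-0.82 to 0.76).

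**Figure D4:**
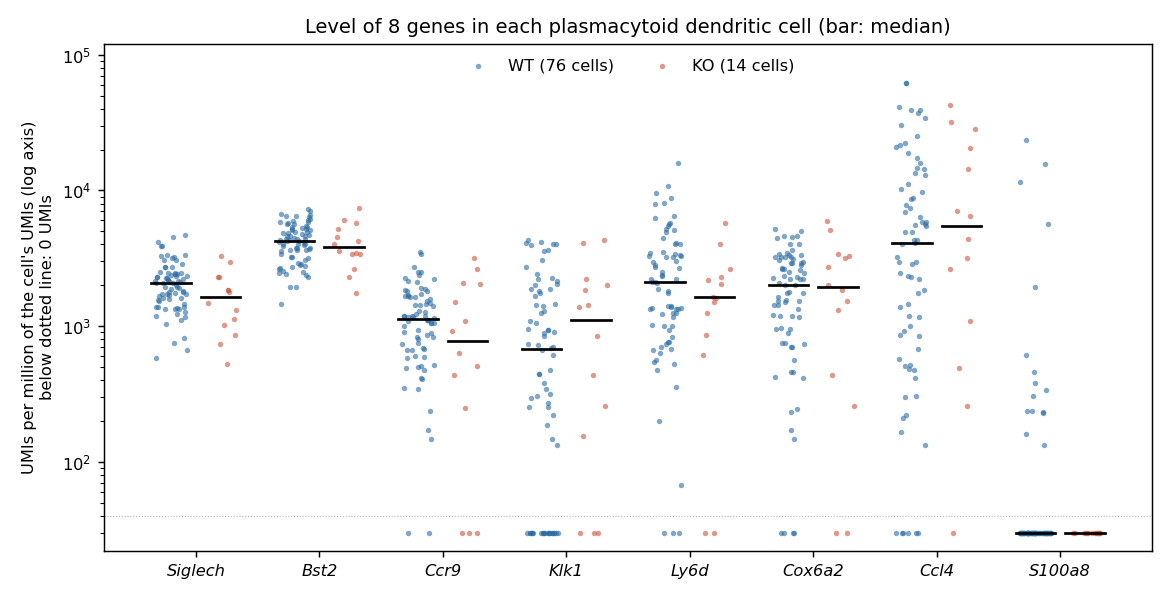
Level of 8 genes in each pDC, as CPM on a log axis, for 76 WT and 14 KO-labelled cells, with a bar at the median and cells with no UMI below the dotted line. The cells of both libraries overlap for each gene, the median of Ccl4 is 4086 in WT and 5435 in KO-labelled cells, and S100a8 is high only in the few WT cells described above.

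Immediate early genes were higher in KO-labelled pDC. Of 15 on the list, 9 were at least 1.5-fold higher and 2 lower, beside 14.6% and 26.7% of all genes. By the stricter count 8 were higher and 1 lower, beside 3.96% and 3.11% of all genes. The list had a median log2 ratio of 0.70. Without the 1 cell richest in these genes the list median was 0.32, and without the 2 cells lacking the 4 markers it was 0.49. Their summed level per cell had a median of 9734 CPM in WT (1894 to 30738) and 16553 in KO-labelled pDC (1854 to 39210), and the cells overlapped. Jun had 2933 against 1297 CPM (median cell 1506 against 443), a log2 ratio of 1.18 (0.93 to 1.42), and 1.02 without that cell. Fos had 1663 against 725 CPM and a ratio of 1.20, but the same cell held 65 of its 106 UMIs and the ratio was -0.018 without it. Atf3, a stress-induced factor, had 1239 against 363 CPM, a ratio of 1.77, and 1.32 without that cell.

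Of the 6 genes that stood highest, Klf2, Rhob, Klf6, Atf3, Ly6a and Hspa1b, most are of the same kind. Klf2, a factor of lymphocyte quiescence and trafficking, had 1851 against 530 CPM, a log2 ratio of 1.80 (1.47 to 2.13), and 1.10 without the cell named above. In all other cells its ratio was -0.46. Rhob had 20 of 26 UMIs in that cell, and its ratio went from 2.20 to 0.24. Ly6a, an interferon-inducible surface protein, had 957 against 338 CPM, a ratio of 1.5 (1.04 to 1.95), with 2 of 61 UMIs in that cell. In all other cells of this library Ly6a was also higher, at a ratio of 2.05. Of 8 measured type I interferon targets 4 were at least 1.5-fold higher and 0 lower, beside 14.6% and 26.7% of all genes. Irf7 had 12 UMIs and 188 CPM against 54.3. Outside pDC Irf7 was also higher in this library, at 174 against 77.7 CPM in macrophages, 147 against 77.9 in cDC2 and 242 against 210 in cDC1. Tnf had 22 UMIs in KO-labelled pDC, of which 68.2% lay in 1 cell.

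Among the 6 that stood lowest were Tgif1, Sla2, Ptpre, Atp6v0c and Grasp. Sla2, an adaptor that dampens antigen receptor signals and 1 of the leading pDC genes, had 62.7 against 252 CPM, a log2 ratio of -2.00 (-3.91 to -0.60). Tgif1, a homeobox repressor, had 2 UMIs and a ratio of -2.54 (-5.61 to -0.64). Atp6v0c, a subunit of the proton pump of endosomes, had 392 against 858 CPM, a ratio of -1.13, and a ratio of -0.84 in all other cells. Cxcl2 had 1 UMI against 1613 CPM, a ratio of -6.68 (-11.99 to -4.20), and -3.13 (-8.46 to -0.58) when the 5 WT cells with neutrophil transcripts were left out. It was also lower outside pDC, with 1066 against 5874 CPM in all other cells and 1081 against 7013 in empty droplets. On the secretory list 10 of 38 genes were lower and 3 higher, and on the glycolysis list 5 of 10 were lower and 1 higher, beside the 26.7% and 14.6% of all genes. By the stricter count 3 secretory genes and 1 glycolysis gene were lower and 0 higher, beside 3.11% and 3.96% of all genes.

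**Figure D5:**
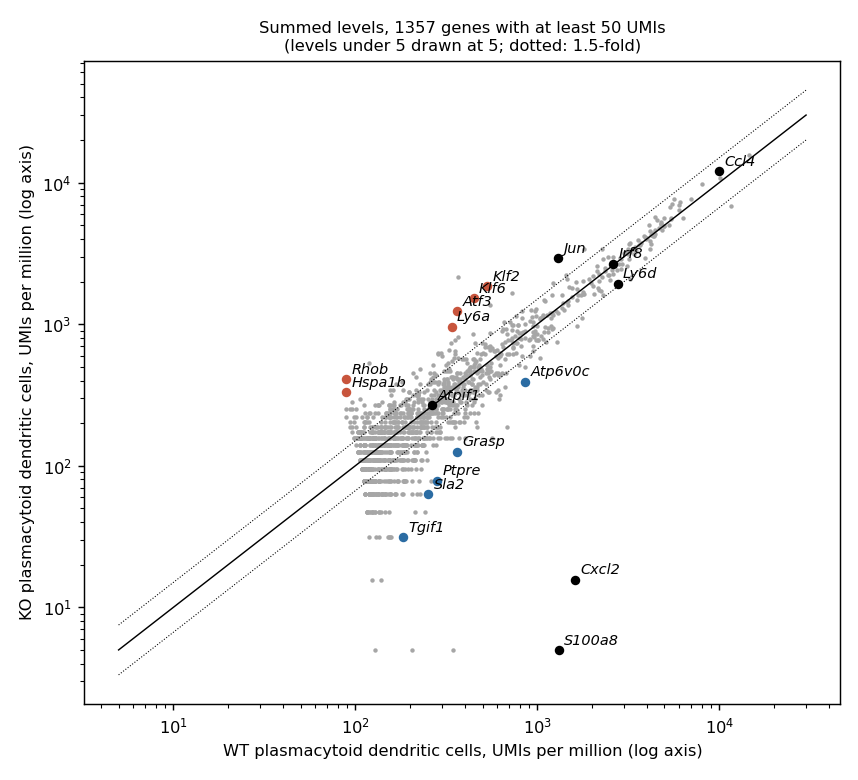
Summed level in KO-labelled pDC (vertical) against WT pDC (horizontal), in CPM on log axes, for genes with at least 50 UMIs in both libraries together. Dotted lines mark 1.5-fold. Klf2, Jun and Atf3 lie above them, Sla2, Tgif1 and Cxcl2 below, and Irf8, Ccl4 and Atpif1 between.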

How the data were processed

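Unique molecular identifier counts were deposited per gene and barcode for each RNA library, in a 10x 5′ V1.0 design per the labels' protocols. The submitters' processing notes name Cell Ranger 3.1.0, mm10, Seurat 3.2.0 and R 3.6.1. The deposited counts include empty droplets, taken here as barcodes with 10 to 100 UMIs. Deposited T cell receptor contigs were counted per barcode, as contigs of any kind and as productive alpha or beta chains marked as from a cell. Counts were summed over gated cells with Python 3.11.15, numpy 2.4.6, scipy 1.17.1 and pandas 2.3.3, after tests on simulated data. Members and gene lists were chosen with earlier results of these data known. With 1 library per genotype no test was made. A gene was called at 2-fold (1.5-fold between genotypes) and at least 20 UMIs, with counts of 0 set to 3 and the 12 genes of the gates left out. Named genes were the 20 highest and 10 lowest against other cells by the interval bound nearest 0, the 6 highest and lowest in each other comparison, the 12 most variable, Atpif1 and list members. Some genes that this rule names are not reported here. Shares of cells with a UMI used cells thinned to 1000 UMIs. Doublets were limited only by the excluded marker UMIs. Reads of near-identical paralogs and overlapping genes, immunoglobulin segments included, may be split unevenly. Alternatives changed cell filters, the Siglech minimum, thinning, free RNA, scaling and the gene minimum.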

Additional observations from a re-analysis of the deposited data

How the results depend on the processing

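The WT share of pDC was 2.42% with a minimum of 2000 UMIs and 800 genes. With cells thinned to 1000 UMIs, 844 genes were at least 2-fold lower than in other WT cells, and 757 higher and 351 lower by the stricter count. Between the libraries thinning left 108 genes higher and 169 lower at 1.5-fold, 26 and 23 by the stricter count, of 667, against 465, 849, 126 and 99 of 3183. Genes with at least 50 UMIs gave 138 higher, 262 lower and 70 by the stricter higher count, of 1353. For all of these fewer cells or genes were measured. Against other WT cells, thinning moved 17 list medians by over 0.2 and left 4 within it, and took 45 named genes outside their interval and left 24 inside; the sensing median turned to -0.19 and the ATP synthase median to 0.10. Leaving out cells above 15000 UMIs moved 13 list medians and 27 genes and left 8 and 43. Among log2 ratios of KO-labelled over WT pDC, Hspa1a turned to -0.10 with a Siglech minimum of 6 UMIs, to -0.26 with thinning and to -0.49 without the cells lacking 4 markers. Isg15 turned to -0.29 and the median of conventional dendritic cell factors to -1.08 with the Siglech minimum of 6 UMIs, Fos to -0.018 without the KO-labelled cell richest in immediate early UMIs, and the cytokine median to 0.23 with thinning and to 0.26 without WT cells holding neutrophil transcripts. The 3 alternatives that leave out such cells were chosen after seeing the data. No paired analysis was possible because each genotype had 1 library. Ratios resting on few UMIs carry wide intervals.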
